A study of Mus musculus with 16 samples.

Results

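The genes described here are 10 that handle iron and haem: Fth1, Ftl1, Slc40a1, Tfrc, Slc11a1, Slc11a2, Hmox1, Blvrb, Ireb2 and Trf. They were chosen by symbol from the 54532 genes of the deposited count table, with earlier results of these data known. All 10 were among the 15257 genes with enough counts to be tested. RNA was sequenced from bronchoalveolar lavage cells, the cells washed out of the airspaces of the lung, of male and female mice aged 8 to 10 weeks. The sample labels give the strain as C56BL/6J and the design text as C57BL/6. The 4 groups were saline males, saline females, bleomycin males and bleomycin females, with 4 libraries each, and all received their treatment through the oropharynx with a readout after 14 days. Bleomycin, a DNA-damaging drug used to injure the lung and model fibrosis in mice, was given at 4 U per kg of body weight. The labels give every library its own code (C33 to C77) but not the number of animals behind it, so p-values measure the spread between these libraries.

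Iron enters most cells bound to transferrin through the transferrin receptor, is carried across endosomal membranes by metal transporters of the SLC11 family, is stored in the ferritin shell, and leaves through ferroportin. Haem taken up with red cells is opened by haem oxygenase, which releases iron and makes biliverdin, and biliverdin reductases then reduce biliverdin. Iron regulatory proteins, one of them encoded by Ireb2, bind a stem-loop called the iron-responsive element when cell iron is low: at the 5′ end of an mRNA this blocks translation, and in the 3′ UTR of the transferrin receptor mRNA it protects the transcript from decay. Macrophages of the lung and spleen are known for taking up, storing and recycling iron.

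The iron-responsive elements are shown because control through a 5′ element acts on translation, which was not measured here, so that the levels below are of mRNA only. GENCODE M21 transcripts (GRCm38) were searched on the transcript strand for an unpaired C, 5 bases, the loop CAGTGN and 5 bases that pair with those before the loop, G-U pairs allowed. Of the 10 genes, 4 held a match, and so did 294 of 21901 coding genes (1.34%). The capitals mark the unpaired C and the 6 bases of the loop, and each sequence runs 5′ to 3′ on the transcript over 30 bases, written as DNA.
Fth1, 5′ UTR, exon 1, chr19:9982731-9982760, plus strand: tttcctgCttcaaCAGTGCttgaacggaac
Ftl1, 5′ UTR, exon 1, chr7:45459779-45459808, minus strand: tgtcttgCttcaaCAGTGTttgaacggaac
Slc40a1, 5′ UTR, exon 1, chr1:45925465-45925494, minus strand: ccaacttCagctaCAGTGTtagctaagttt
Tfrc, 3′ UTR, exon 19, chr16:32631218-32631247, plus strand: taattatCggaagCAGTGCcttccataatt
Tfrc, 3′ UTR, exon 19, chr16:32631597-32631626, plus strand: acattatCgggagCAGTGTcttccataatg
Tfrc, 3′ UTR, exon 19, chr16:32631662-32631691, plus strand: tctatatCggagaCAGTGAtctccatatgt
Tfrc, 3′ UTR, exon 19, chr16:32631709-32631738, plus strand: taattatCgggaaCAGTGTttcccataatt

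The elements of the 2 ferritin chains were identical at 27 of 30 bases. Not every transcript of a gene carries its element: the match was in 4 of 5 coding transcripts of Fth1, 1 of 2 of Ftl1, 1 of 4 of Slc40a1 and 1 of 3 of Tfrc. The counts are per gene, so transcripts with and without the element cannot be told apart. For the other 6 genes this pattern was not found. The search required all 5 stem pairs, so an element with a bulge or an unpaired base in this stem would be missed. The search therefore does not show that these 6 genes lack an element, or that Tfrc has no further one.

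The libraries held 16385784 to 21393539 counts under saline and 18871879 to 24567609 under bleomycin. Markers of several cell types differed between the treatments: averaged over the sexes, 12 of 15 resident alveolar macrophage markers fell and 1 rose, and 14 of 15 monocyte and monocyte-derived macrophage markers rose. The summed level of the first list was 21508 to 30593 CPM under saline and 13613 to 27015 under bleomycin, and that of the second was 886 to 1242 and 6653 to 14430 CPM. All 12 T cell markers rose, as did the 9 tested of 10 B cell markers. Of 7 tested neutrophil markers 6 rose and 1 fell, while Ly6g, Mpo and Elane were at 0 to 2 counts per group. Of 12 epithelial markers 10 rose and 1 fell, and of 5 tested fibroblast and endothelial markers 4 rose. The summed epithelial markers were at 200 to 260 CPM under saline and 196 to 288 under bleomycin, and the fibroblast and endothelial markers at 138 to 185 and 161 to 256 CPM. CPM are counts per gene after division by the library's size and its composition factor (TMM). The part that this change of cells has in the changes below was not tested. In bulk RNA, more cells of a type and more RNA per cell cannot be told apart.

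Nearly all of the iron and haem genes stood higher under bleomycin. They were chosen with earlier results of these data known, so the shares below describe these genes and do not test them as a set. Averaged over the sexes, 9 of the 10 rose and none fell, against 34.7% of all tested genes that rose and 28.8% that fell (edgeR quasi-likelihood test, Benjamini-Hochberg adjusted p below 0.05 over the 15257 genes). Of these, 6 rose at least 2-fold: Slc11a1, Slc40a1, Hmox1, Fth1, Ftl1 and Blvrb. Slc11a2, Trf and Tfrc rose by less, and Ireb2 was the gene that did not pass. In males 8 rose, against 31.5% of all genes (24.9% fell), and in females 8 rose, against 26.7% (17.2% fell), with Trf and Ireb2 not passing in either sex. The median log2 difference of the 10 genes was 1.29 in the average, beside 0.0116 over all tested genes. Every bleomycin library was above every saline library for 7 of the 10 genes in males, against 29.8% of all genes, and for 8 in females, against 23.8%. Over both sexes together this held for 7, against 19.2%. Scaling by library totals alone moved the median of all genes to -0.20 and the genes that rose and fell from 5300 and 4400 to 3720 and 7001, and of the 10 genes 8 then rose and 1 fell: Trf was not called and Ireb2 was called lower, at -0.25.

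**Figure D1:**
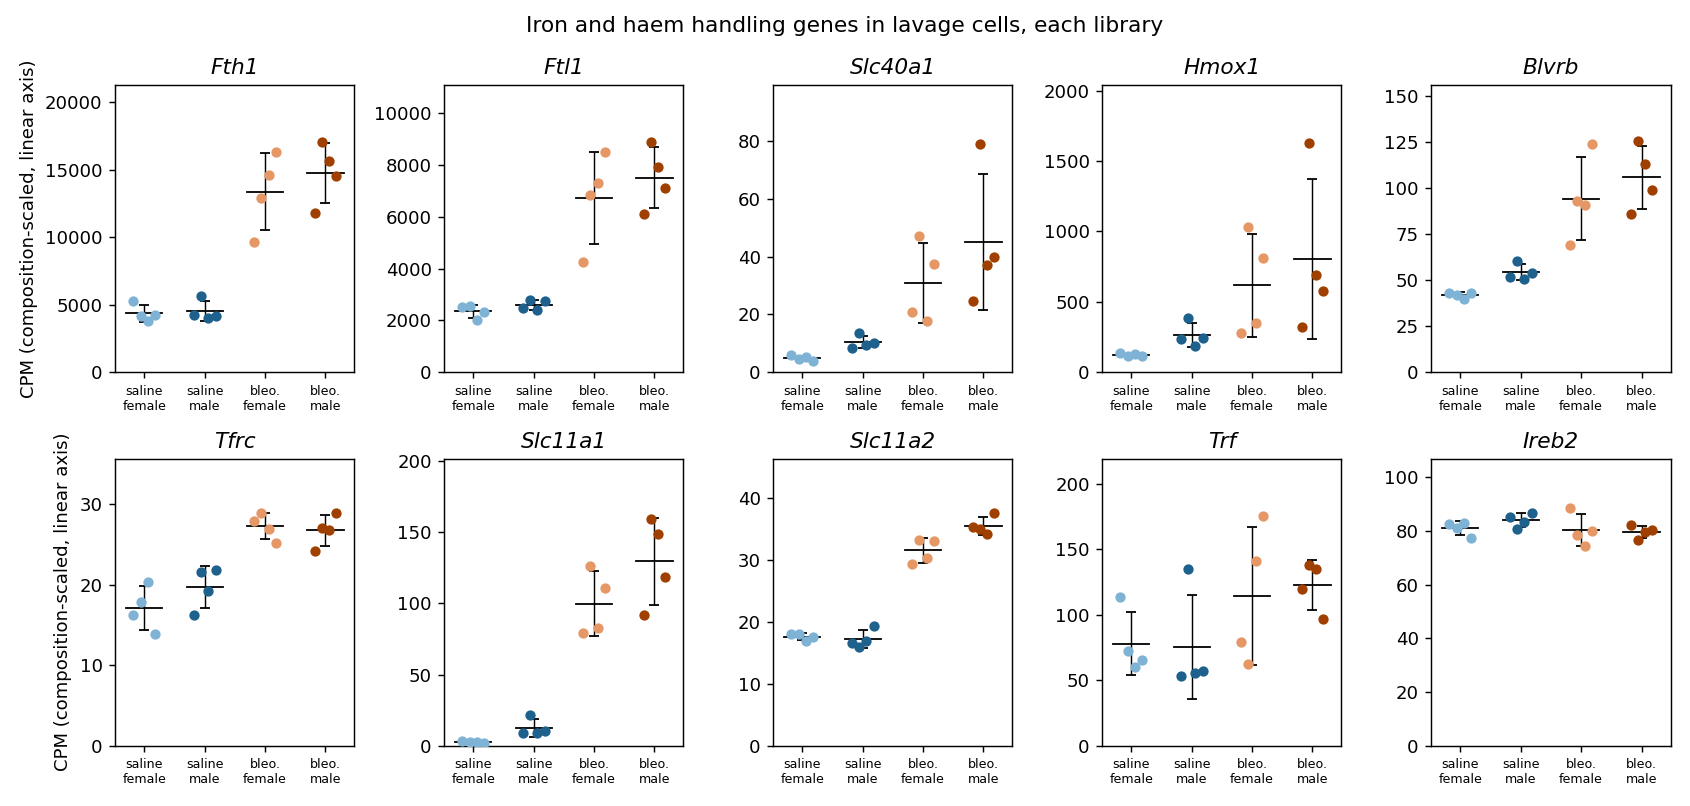
Level of each gene in CPM on a linear axis, with 1 point per library, the horizontal line at the group mean and the bar 1 SD (n = 4 libraries per group). Bleomycin points sit above all saline points for Fth1, Ftl1, Slc40a1, Blvrb, Tfrc, Slc11a1 and Slc11a2, and overlap them for Hmox1, Trf and Ireb2.

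Both ferritin chains rose about 3-fold. Fth1 (chr19:9982703-9985092, 4 exons) encodes the heavy chain, which oxidises iron as it enters the shell. It stood at 4239, 5667, 4034 and 4139 CPM in saline males (C70 to C73) and at 5279, 4175, 3798 and 4237 CPM in saline females (C74 to C77). In bleomycin males it stood at 11825, 17073, 15611 and 14512 CPM (C33, C65, C66, C67), and in bleomycin females at 9673, 12892, 14634 and 16296 CPM (C49, C50, C68, C69). The lowest bleomycin library, C49, was above the highest saline library, C71. The log2 difference was 1.71 (SE 0.17, adjusted p 9.87e-08) in males and 1.61 (SE 0.16, adjusted p 2.13e-07) in females by edgeR.

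Ftl1 (chr7:45457944-45459884, minus strand) encodes the light chain, which favours the growth of the iron core. Saline libraries held 2010 to 2775 CPM, and bleomycin libraries 4265 CPM in C49 and 6114 to 8900 CPM in the others. It rose by 1.53 in males and 1.52 in females on the log2 scale (SE 0.17 in each). C49 was thus the lowest bleomycin library for both chains. Its summed monocyte-derived macrophage markers were the lowest of the bleomycin libraries, at 6653 CPM, and so were its resident macrophage markers, at 13613 CPM. Its T cell and B cell markers, at 594 and 344 CPM, lay within the range of the other bleomycin libraries. The part of these cells in the ferritin levels of C49 was not tested. The pseudogenes with a ferritin symbol in the count table, 3 for Ftl1 and 2 for Fth1, held few counts. These were 1.04% to 2.33% as many as Ftl1 and up to 0.00842% as many as Fth1. Pseudogenes under other names were not searched for, so these shares do not give all ferritin reads placed elsewhere.

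Ferritin was among the most abundant messages of these cells. By counts Fth1 ranked between 6 and 10 among all genes under saline and between 3 and 5 under bleomycin, and Ftl1 between 17 and 24 and between 9 and 14. Both chains together took 0.636% to 0.895% of the counts under saline and 1.43% to 2.33% under bleomycin. The heavy chain exceeded the light chain in every library when compared per gene length: the ratio of their FPKM (fragment counts scaled for library and gene length) was 2.32 to 3.25 under saline and 2.92 to 3.51 under bleomycin, and these ranges overlap.

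Slc40a1 (chr1:45908068-45926523, minus strand), which encodes ferroportin, the iron exporter, rose more than ferritin in fold and from a low level. Saline males held 8.48, 13.6, 9.46 and 10.1 CPM and saline females 5.83, 4.57, 5.20 and 3.75 CPM. Bleomycin males held 24.7, 79.2, 37.0 and 39.9 CPM and bleomycin females 20.97, 47.3, 17.8 and 37.5 CPM. No bleomycin library overlapped a saline library, yet the bleomycin libraries spread over more than a 4-fold range, with C65 highest and C68 lowest. The log2 difference was 2.12 (SE 0.33, adjusted p 2.94e-05) in males and 2.68 (SE 0.35, adjusted p 4.67e-06) in females by edgeR.

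The largest fold change among the 10 genes was that of Slc11a1 (chr1:74375195-74386062), which encodes NRAMP1, a metal transporter of the phagosome membrane of macrophages. Only its mRNA was measured, and whether these mice make a working NRAMP1 protein was not tested. Saline females held 3.39, 2.70, 2.94 and 1.70 CPM, and saline males 8.84, 21.6, 8.92 and 10.7 CPM. Bleomycin females held 79.3, 126, 82.7 and 111 CPM, and bleomycin males 91.5, 159, 149 and 118 CPM. The saline groups were apart from each other, and the bleomycin groups overlapped. It rose by 5.21 on the log2 scale in females (37.1-fold, SE 0.31, adjusted p 1.94e-10) and by 3.38 in males (10.4-fold, SE 0.27, adjusted p 6.56e-09).

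Slc11a2 (chr15:100387898-100425072, minus strand) encodes DMT1, the transporter that takes iron out of endosomes. It varied little within the groups: 15.97 to 19.3 CPM in all 8 saline libraries, 29.4 to 33.3 CPM in bleomycin females and 34.2 to 37.6 CPM in bleomycin males. The log2 difference was 1.05 (SE 0.080) in males and 0.84 (SE 0.081) in females, with adjusted p of 5.11e-09 and 1e-07 by edgeR. Per gene length, Slc11a1 stood at 0.166 to 0.322 times Slc11a2 in saline females, 0.907 to 2.32 times in saline males and 4.45 to 7.80 times in all bleomycin libraries. The order of these mRNAs was thus Slc11a2 over Slc11a1 in every saline female library and the reverse in every bleomycin library.

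The iron entry genes rose little or were variable. Tfrc (chr16:32608920-32632794), the transferrin receptor gene, stood at 13.9 to 21.8 CPM under saline and 24.2 to 28.9 CPM under bleomycin, without overlap. It rose by 0.44 in males (SE 0.12, adjusted p 0.00348) and by 0.67 in females (SE 0.12, adjusted p 0.000106), edgeR. With library totals alone the male difference was 0.21 and did not pass (adjusted p 0.154).

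Trf (chr9:103204001-103230444, minus strand), the gene of transferrin itself, stood at 53.6, 135, 55.4 and 57.3 CPM in saline males and 113, 72.4, 60.3 and 65.8 CPM in saline females. Bleomycin males held 120, 138, 135 and 96.6 CPM and bleomycin females 79.6, 62.6, 141 and 176 CPM. The groups overlapped in both sexes. C71 was the high saline male, and C49 and C50 were the low bleomycin females. Trf rose in the average, by 0.63 (SE 0.22, adjusted p 0.0209, edgeR). In males it was at 0.71 (SE 0.32, adjusted p 0.0673) and in females at 0.55 (SE 0.32, adjusted p 0.173). Single libraries decided these calls: without C69 the average was 0.48 (adjusted p 0.0594), and without C71 the male difference was 1.14 (adjusted p 0.00298). Trf shares 2108 exon bases with the gene model Gm20425 on the same strand, which held 0 counts. Reads in the shared bases cannot be told apart. Whether they were counted for Trf or for neither gene was not tested, so the level of Trf may be too low.

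Ireb2 (chr9:54863789-54912530), the iron regulatory protein gene, stood at 77.5 to 86.7 CPM under saline and 74.4 to 88.5 CPM under bleomycin. Its log2 difference was -0.04 in the average, with a 95% interval from -0.14 to 0.05 (adjusted p 0.39, edgeR). With library totals it was -0.31 in males, -0.20 in females and -0.25 in the average, each called lower.

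Haem breakdown was led by Hmox1 (chr8:75093621-75100589), the inducible haem oxygenase. It stood at 134, 116, 128 and 113 CPM in saline females and 235, 386, 189 and 244 CPM in saline males. Bleomycin females held 278, 1032, 346 and 811 CPM and bleomycin males 324, 1626, 687 and 574 CPM. In females the groups did not overlap, while in males the lowest bleomycin library, C33, lay below the highest saline library, C71. Hmox1 rose by 2.33 in females (SE 0.43, adjusted p 0.000234) and by 1.61 in males (SE 0.42, adjusted p 0.00365) by edgeR, the widest errors of the 10 genes. Its coefficient of variation was 63.9% over the 8 bleomycin libraries and 48.7% over the 8 saline libraries. Within groups it was 70.9% in bleomycin males, 59.1% in bleomycin females, 32.5% in saline males and 8.08% in saline females.

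Blvrb (chr7:27447978-27466144), a biliverdin and flavin reductase gene, stood at 39.8 to 43.2 CPM in saline females and 50.8 to 60.6 CPM in saline males. It reached 69.1 to 124 CPM in bleomycin females and 86.0 to 126 CPM in bleomycin males, above every saline library. It rose by 1.16 in females (SE 0.14, adjusted p 1.55e-06) and by 0.96 in males (SE 0.14, adjusted p 1.16e-05) by edgeR.

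**Figure D2:**
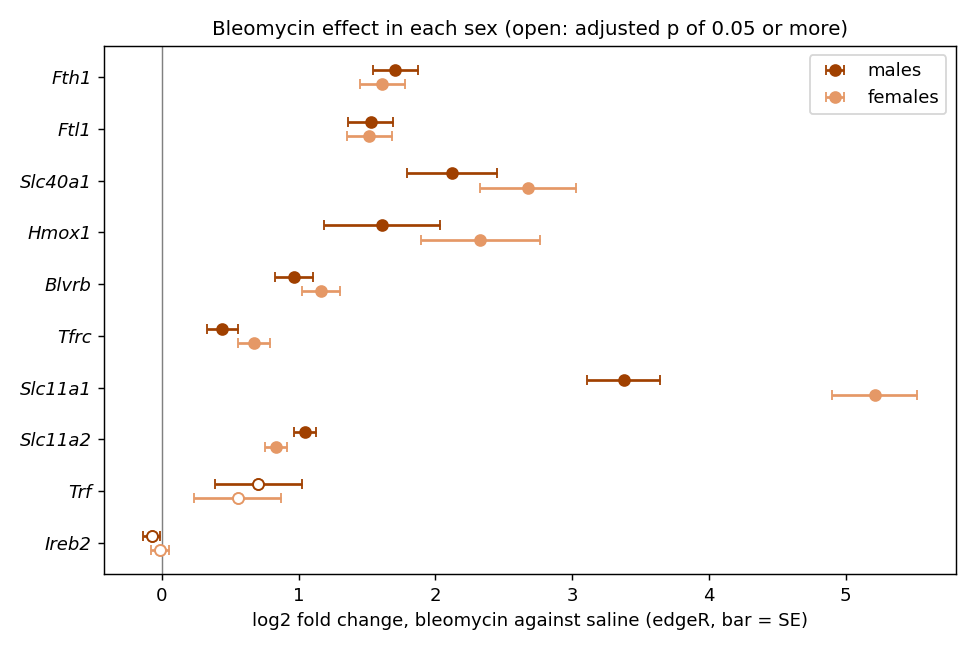
Log2 difference between bleomycin and saline for each gene in males (dark) and females (light), with the bar 1 SE from edgeR (4 libraries per group) and open points at an adjusted p of 0.05 or more. Slc11a1 lies furthest right, at 5.21 in females and 3.38 in males, and Ireb2 lies furthest left, at -0.08 in males and -0.01 in females.

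Compared per gene length, the group means of the 10 genes ran from 0.535 FPKM (Slc40a1, saline females) to 16846 FPKM (Fth1, bleomycin males). In every group Fth1 came first, Ftl1 next and Hmox1 after it, with no overlap between neighbours: mean FPKM in saline males were 5202 ± 883, 1937 ± 140 and 150.0 ± 48.6, and in bleomycin males 16846 ± 2487, 5538 ± 854 and 453 ± 319 (SD, n = 4). Trf and Blvrb followed, and they overlapped each other in 3 of the 4 groups, saline females being the exception. Ireb2 stood at 8.32 to 8.84 FPKM as group means. At the low end, saline males had Slc11a1, Tfrc and Slc11a2 overlapping between 2.70 and 3.37 FPKM, and Slc40a1 was lowest at 1.15 ± 0.243. In saline females Slc11a1 (0.720 ± 0.192) and Slc40a1 (0.535 ± 0.0990) were lowest and overlapped. These orders rest on the gene lengths used, 3705 bases for Slc11a1 and 9000 for Slc40a1, and the transcripts present were not measured. In mean CPM, which is not scaled for length, saline females held 2.68 of Slc11a1 and 4.84 of Slc40a1. Under bleomycin Slc11a1 moved up to overlap Blvrb or Trf, at 34.5 ± 8.05 FPKM in males and 26.5 ± 6.16 in females, and Slc11a2, Slc40a1 and Tfrc overlapped at the low end.

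**Figure D3:**
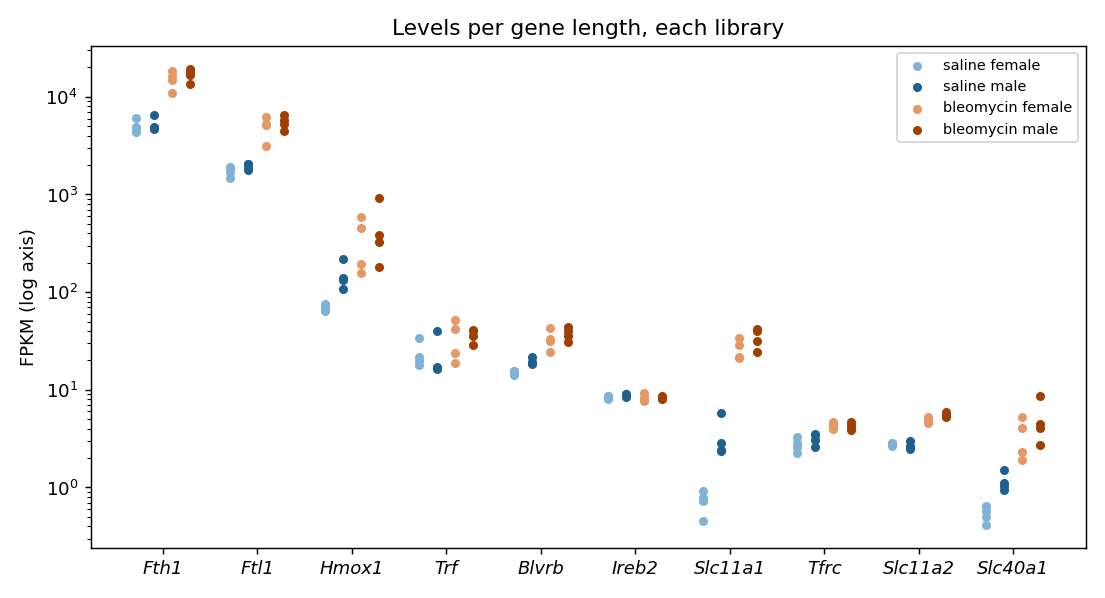
FPKM of each gene on a log axis, with 1 point per library and the 4 groups side by side. Fth1 and Ftl1 stand above the other genes in every library, and Slc11a1 moves from 0.720 ± 0.192 to 26.5 ± 6.16 FPKM in females.

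Under saline, Slc11a1 was higher in males than in females and was the 1 member that passed the test, at 4.62-fold higher in males (log2 difference 2.21, SE 0.31, adjusted p 0.00163, edgeR), against 0.144% of all genes higher in males and 0.125% higher in females. For Slc11a1, Slc40a1, Hmox1 and Blvrb every saline male library was above every saline female library, which held for 6.85% of all genes. The last 3 of these did not pass: Slc40a1 was at 1.10 (SE 0.35, adjusted p 0.295), Hmox1 at 1.10 (SE 0.42, adjusted p 0.411) and Blvrb at 0.37 (SE 0.14, adjusted p 0.405). The authors' deposited table for this comparison lists Slc11a1, Slc40a1, Hmox1 and Blvrb, with log2 fold changes of 2.20, 1.09, 1.08 and 0.35. Their adjusted p there, from the authors' DESeq2, were 1.09e-06, 2.83e-07, 0.000275 and 0.000219, so all 4 passed, unlike in the edgeR fit of all 16 libraries. DESeq2 run here on all 16 libraries also called 1 member higher in males. C71 was the highest saline male for all 4 genes, and without it the Slc11a1 difference was 1.82 (adjusted p 0.0022). The resident macrophage markers summed to 21508 to 23443 CPM in saline males and 27496 to 30593 CPM in saline females, and the monocyte-derived markers to 998 to 1242 and 886 to 981 CPM. Their part in the difference between the sexes was not tested.

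The call depended on the fit. With only the saline groups in the fit all 4 genes passed, with adjusted p of 0.0016, 0.00353, 0.00277 and 0.01 in the order above, and 765 genes passed in all against 41. With limma voom Slc11a1 was at 2.12 and did not pass (adjusted p 0.0674).

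Under bleomycin none of the 10 genes differed between the sexes by the test, against 0.059% of all genes. Slc11a2 was the 1 member without overlap, at 0.17 above females in males (SE 0.079, unadjusted p 0.0441, adjusted p 0.995, edgeR), and 0.741% of all genes had every male library above every female library. For Slc11a1 the male minus female difference was 0.37 with a 95% interval from -0.12 to 0.87. For Hmox1 it was 0.38 with an interval from -0.49 to 1.25, which is too wide to show that the sexes are alike.

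The interaction asks whether the bleomycin effect depended on sex. No member passed it, against 0.00655% of all genes (1 gene). The lowest unadjusted p was that of Slc11a1, whose change was smaller in males by 1.83 on the log2 scale (SE 0.39, unadjusted p 0.000188, adjusted p 0.323, edgeR). DESeq2 called this difference, at -1.84 (adjusted p 0.0405), as did edgeR without a filter on low counts, at -1.81 (adjusted p 3.21e-05). The other genes had interactions from -0.72 (Hmox1, SE 0.59) to 0.21 (Slc11a2, SE 0.11).

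Within the 8 bleomycin libraries some of these genes varied together. Among 55 pairs of the 10 genes and the summed haemoglobin genes, 6 correlations of log2(CPM + 1) had an adjusted p below 0.05 and 17 an unadjusted p below 0.05 (exact permutation test over 40320 orders, two-sided, Benjamini-Hochberg over the 55). Pairs of other genes were not examined, so these counts do not show that iron and haem genes vary together more than other genes do. The cell markers also varied between these 8 libraries, and their part in the correlations was not tested. Fth1 and Ftl1 had Pearson's r 0.982 (p 2.5e-05) and Spearman's rho 1.0 (p 5e-05), with r 0.956 without C33 and C49, the libraries farthest from the median. Each ferritin chain also went with Blvrb, at r 0.951 (p 0.000149) for Fth1 and 0.952 (p 0.000174) for Ftl1, and rho 0.929 (p 0.00223) for each. The other pairs were Slc40a1 with Hmox1, Slc40a1 with Slc11a1 and Slc11a1 with Hmox1. By Spearman's rho these pairs did not pass, with adjusted p of 0.0982, 0.121 and 0.0982 in that order (exact permutation test).

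Slc40a1 and Hmox1 had r 0.952 (exact permutation p 0.000818, adjusted p 0.0113) over the same 8 libraries, and r 0.957 without C65 and C68. Their rho was 0.857 (exact permutation p 0.0107, adjusted p 0.0982). With each sex centred on its own mean r was 0.972. C65 and C50 were highest and C33, C49 and C68 lowest for both genes. Haemoglobin genes were also high in C65, at 5955 CPM, and low in C33, at 65.1 CPM, but not in the order of Hmox1: C49 held 1016 CPM of haemoglobin with the lowest Hmox1, and C50 held 874 CPM with the second highest. Haemoglobin against Hmox1 gave r 0.742 (exact permutation p 0.0365, adjusted p 0.144) and rho 0.476 (p 0.243), and against Slc40a1 r 0.765 (exact permutation p 0.0301, adjusted p 0.136) and rho 0.5 (p 0.216). These values rested on few libraries: without C65 and C49 r was 0.874 for Hmox1, and without C65 and C68 it was 0.426 for Slc40a1. In bleomycin against saline the 4 tested haemoglobin genes rose in males (median log2 difference 5.15) and in females were at a median of 1.69, where none passed. The part of red cell RNA or of red cell uptake in the Hmox1 and Slc40a1 levels was not tested.

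**Figure D4:**
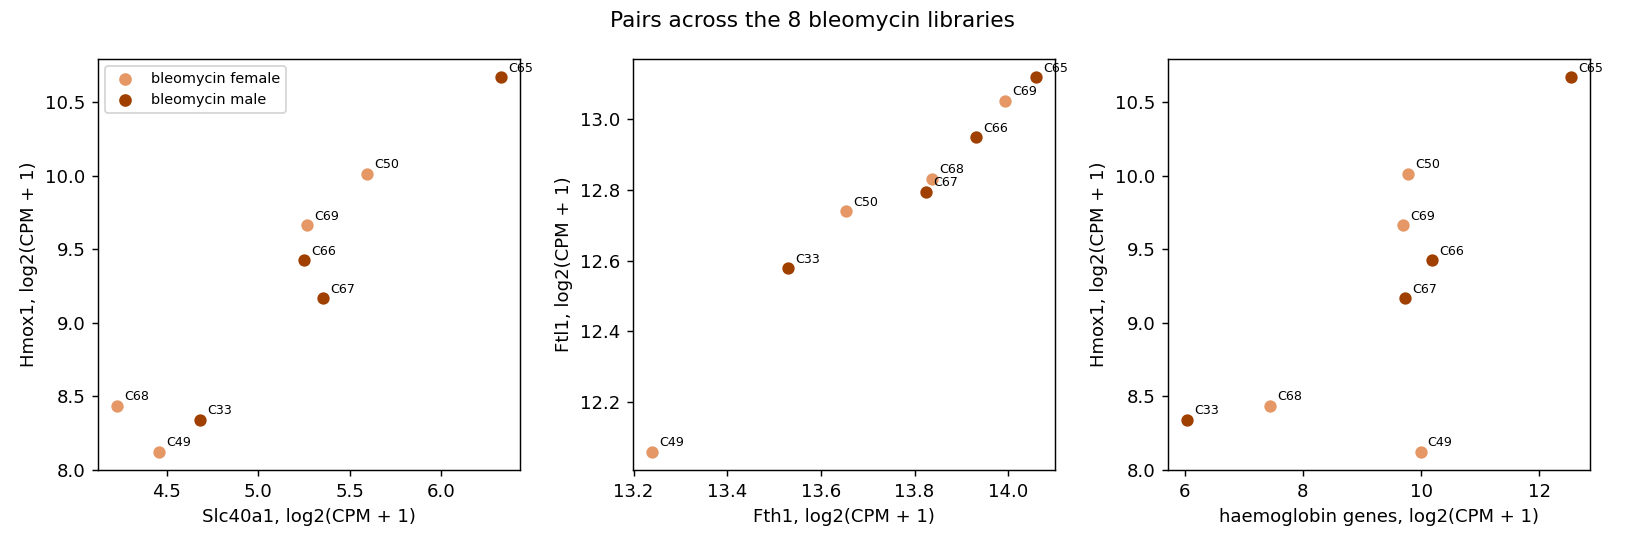
Pairs of levels over the 8 bleomycin libraries as log2(CPM + 1), with 1 labelled point per library, dark for males and light for females. Slc40a1 and Hmox1 (left, r 0.952) and Fth1 and Ftl1 (middle, r 0.982) line up, while haemoglobin and Hmox1 (right, r 0.742) leave C49 off the line.

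The genes most like each member across the 16 libraries were found among 9169 protein-coding genes with at least 10 CPM in a group, by the root mean square difference of log2 CPM after centring each gene. Slc40a1 and Hmox1 were each other's nearest gene, at 0.352. Fth1 was the second nearest gene to Ftl1, at 0.145, after Ethe1 at 0.144, while Fth1 itself was nearest to Ly6e (0.110) and Psap (0.113). Slc11a2 was nearest to Flvcr1, a haem exporter gene, at 0.1004, and then to Scoc. The nearest genes to Slc11a1 were Cyfip2 and Plpp3, at larger distances of 0.426 and 0.529. Blvrb was nearest to Creg1 and Il10rb, Tfrc to Mtmr12 and Irak2, Ireb2 to Mrs2 and Dcaf8, and Trf to Wdr83os and Fcer1g. The second gene after Slc40a1 for Hmox1 was Slc27a3, and after Hmox1 for Slc40a1 it was Arl4c.

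Around the 10 genes, 75 further symbols of iron and haem metabolism in 8 lists were examined, of which 59 were tested. These lists were also chosen with earlier results of these data known, so their shares are descriptive. In the average 30 rose, 13 fell and 16 did not pass, with a median log2 difference of 0.22. This is 50.8% higher and 22.03% lower, beside 34.7% and 28.8% of all genes. With library totals 27 rose and 20 fell, with a median of 0.0034. Of all 15257 tested genes 3720 then rose and 7001 fell, with a median of -0.20. None of the 59 differed between the sexes under either treatment or in the interaction.

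In iron uptake and endosomal release 6 of 9 tested genes rose and 2 fell. Steap3, an endosomal ferrireductase, rose by 1.99 (SE 0.087), from 6.77 ± 0.537 to 34.8 ± 1.87 CPM in males. Hfe, a partner of the transferrin receptor, rose by 1.05 (SE 0.067), and Lcn2, which binds siderophores, by 3.61 (SE 0.31). In storage and ferritin turnover none of 3 rose: Ncoa4, the receptor that sends ferritin to the lysosome, fell by 0.32 (SE 0.063), and the iron chaperones Pcbp1 and Pcbp2 were at -0.14 and -0.07 and did not pass. Ferritin and its turnover receptor thus moved in opposite directions. Of the export list only Cp, the ferroxidase ceruloplasmin, was tested, at 0.27 (SE 0.19), and it did not pass. Hamp, the hepcidin gene, held 10 and 5 counts in saline males and females and 42 and 19 under bleomycin, too few to test.

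Of the 8 regulators 6 rose and 1 fell. The hypoxia-inducible factors rose, Hif1a by 1.19 (SE 0.058) and Epas1 by 2.70 (SE 0.14), as did Zfp36, an mRNA decay factor, by 1.06 (SE 0.081). In haem and haemoglobin uptake and transport 6 of 8 rose and 2 fell. Hp, which binds haemoglobin, rose by 5.91 (SE 0.19), from 1.01 ± 0.204 to 69.8 ± 10.1 CPM in males, and the exporters of haem and porphyrins Flvcr1 and Abcg2 rose by 1.03 (SE 0.063) and 1.29 (SE 0.087). In haem breakdown Hmox2, the constitutive oxygenase, rose by 0.70 (SE 0.062), Blvra fell by 0.19 (SE 0.074), and Por, the electron donor, was at 0.09 and did not pass.

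In haem synthesis 4 of 10 rose and 3 fell. Alas1, the first enzyme of the pathway outside red cells, rose by 0.81 (SE 0.076) and Alad by 0.50 (SE 0.095), while Cpox fell by 0.38 (SE 0.067). Among 17 tested genes of mitochondrial iron and iron-sulfur clusters 7 rose, 3 fell and 7 did not pass. Slc25a28, a mitochondrial iron importer, fell by 0.65 (SE 0.062) and Nfu1 fell by 0.36 (SE 0.063), while Isca1, like Nfu1 a factor of cluster assembly, rose by 0.66 (SE 0.10).

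**Figure D5:**
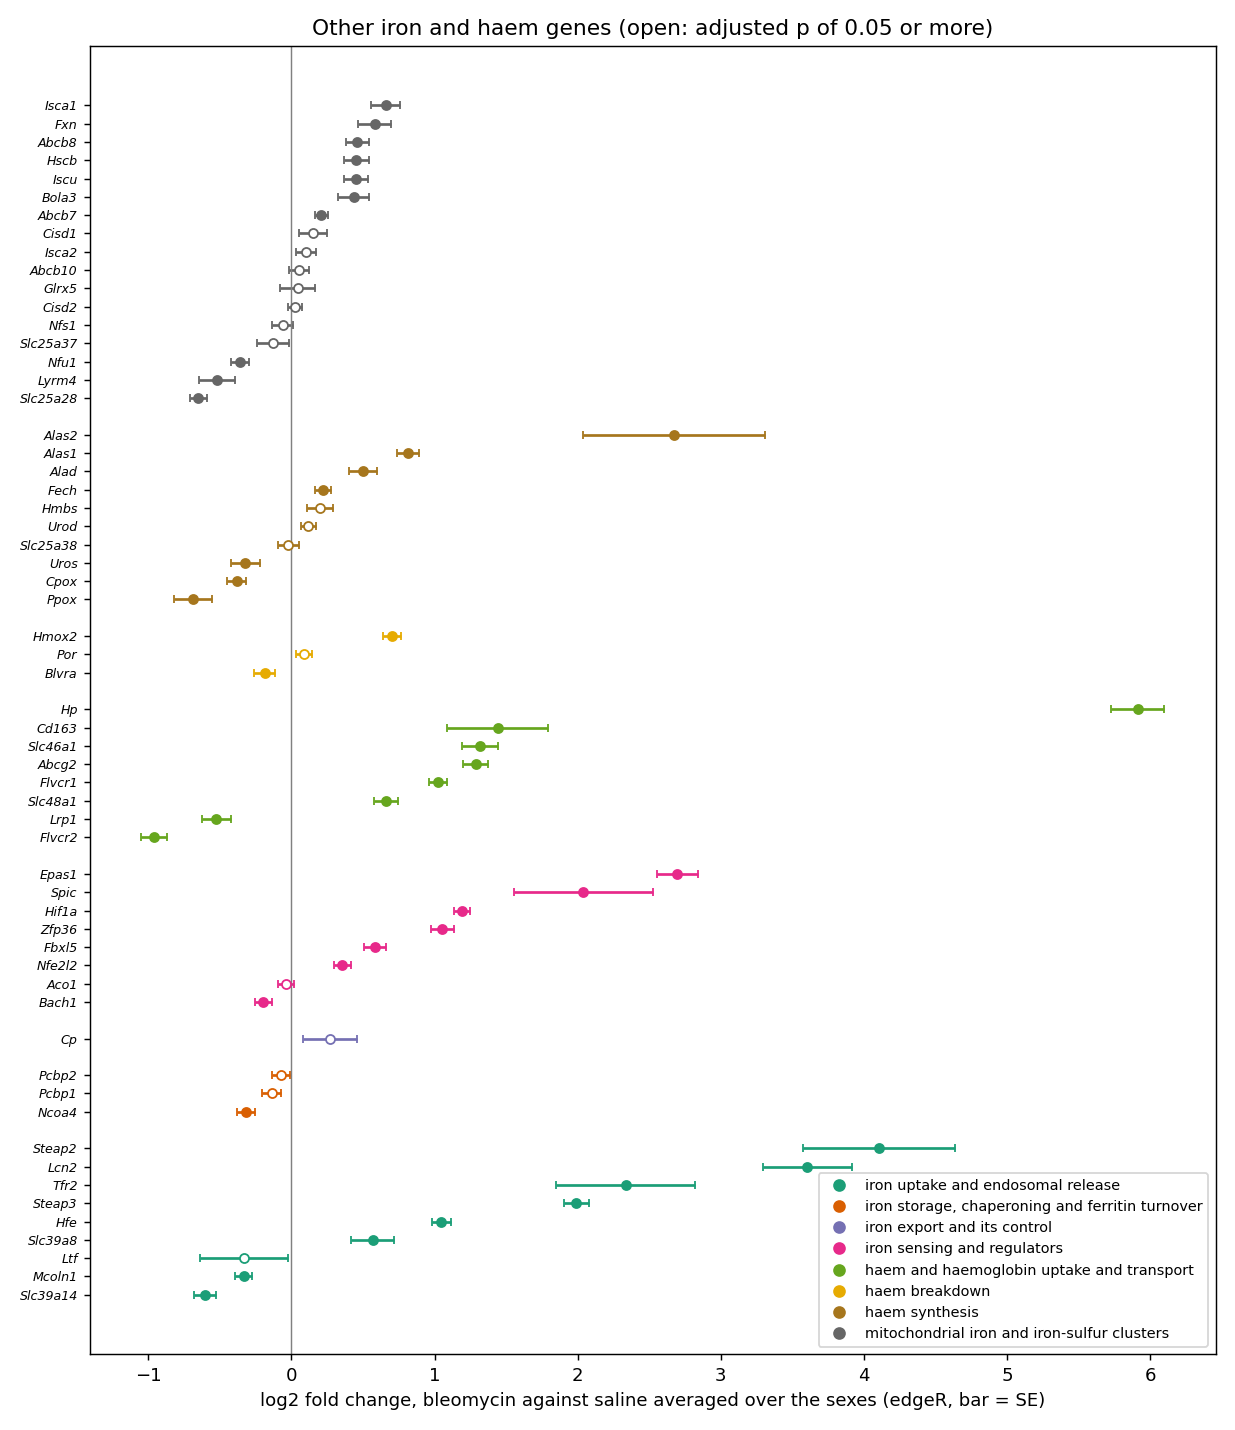
Log2 difference between bleomycin and saline averaged over the sexes for the 59 tested genes of the 8 lists, with the bar 1 SE from edgeR and open points at an adjusted p of 0.05 or more. Hp lies furthest right at 5.91, and the storage and mitochondrial lists lie close to 0.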

How the data were processed

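The authors' tools were DESeq2, featureCounts 1.5.0-p3, HISAT2 2.0.5 and fastp 0.12.2, per the submitters' processing notes, which list mm10 and mm9 as builds and give neither a role. The deposited table of counts holds raw counts per Ensembl gene. The FPKM values were made by the authors, and each equals the count divided by the length of the gene and a library constant, which is proportional to DESeq2's size factors. The log2 fold changes and p-values in the authors' deposited comparison tables are theirs. The coordinates of 53499 of 54532 genes are identical to GENCODE M21 (GRCm38), and for Fth1 those of the deposited table are given. Use of strand in the counting is not given in the sources used here. Antisense models overlap Ftl1 and Slc11a2 by 355 and 402 exon bases and held 266 and 27 counts over all libraries.

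From the counts, edgeR 4.0.16 (R 4.3.3) was fitted to all 16 libraries with TMM scaling, filterByExpr (minimum count 10) and 1 coefficient per group, giving quasi-likelihood F tests adjusted by Benjamini-Hochberg over 15257 genes. Standard errors are the log2 difference divided by the root of F, an approximation. The scripts were tested on simulated data. Alternatives were library totals, median-of-ratios size factors, DESeq2 1.42.0, limma 3.58.1 (voom, and log2(FPKM + 1) or + 0.1), other filters, fits of the compared groups alone, ferritin with its pseudogenes, and each library left out. Correlations used exact permutation.

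The members, the 8 lists of other iron and haem genes and the cell marker lists were chosen with earlier results of these data known. All 10 members are named, with the 3 genes of each list with the smallest adjusted p in the average and the 2 genes most like each member; the Hamp counts were added after their values were seen. Among the members, depth limits mainly Slc40a1 and Slc11a1 in saline females. No batch or litter is labelled.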

Additional observations from a re-analysis of the deposited data

Results flagged for a closer look

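Among the 40 sets of 4 libraries (10 genes in 4 groups), 3 had a library far from the other three of its group by Dixon's test at 95%, and chance flags about 1 in 20 such sets. All 3 were the same saline male, C71, which was high for Fth1 at 5667 CPM (the next was 4239), for Slc11a1 at 21.6 CPM (the next was 10.7) and for Trf at 134.7 CPM (the next was 57.3). In C71 the haemoglobin genes summed to 164 CPM, against 6.72 to 40.8 CPM in the other saline males. Its monocyte-derived macrophage markers summed to 1242 CPM, against 998 to 1045 CPM. The part of either in the 3 levels was not tested.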

How the results depend on the processing

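No direction of a called difference reversed under any alternative run. Averaged over the sexes, 9 members rose under every alternative run except without C69, where 8 rose, and with library totals, where 8 rose and 1 fell. With library totals 7 rose and 1 fell in males, and 8 rose and 1 fell in females. For male against female under saline the count of members called was 1 in the main fit and 3 without a filter on low counts, 4 with only the 2 groups compared and 0 with limma voom. For the interaction it was 0, and 1 without the filter and 1 with DESeq2, each time Slc11a1. The number of genes called for saline males against females was 41, and 184 with DESeq2, 119 without the filter, 20 to 35 with a library left out and 765 with the 2 groups alone. For the interaction it was 1, and 15 without the filter, 23 with DESeq2 and 0 or 1 otherwise. For bleomycin males against females it was 9, and 14 without the filter. Why these counts differ was not tested. Over its alternatives the Slc11a1 interaction ran from -1.97 to -0.92, with adjusted p from 3.21e-05 to 0.796. Trf in males passed without the filter, with voom, on log2(FPKM + 0.1), with the 2 groups alone and without C71, and in females without the filter. No paired analysis was possible because the library codes are not shared between groups. The smallest saline levels, Slc11a1 at 1.70 CPM and Slc40a1 at 3.75 CPM in C77, rest on the fewest counts of the 10 genes.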
